A study of Mus musculus with 30 samples.

Results

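Neonatal fibroblasts (MNF) are cultured connective tissue cells from newborn mice, a starting population for reprogramming to pluripotency with small molecules. They were set against the adult somatic samples of the same normalization set, lung fibroblasts (MAF) and adipose-derived stem cells (ADSC), in 1 array value per probe and sample. The members of this account are the genes at least 4-fold above or at least 4-fold below both adult samples in MNF: 251 above (1.86% of genes) and 448 below (3.32%) of 13511 genes measured. They were also followed into MNF CiPS1, a chemically induced pluripotent stem cell (CiPSC) line made from MNF. These 4 samples are part of 30 in the series, which fall into 5 sets that the authors normalized separately. The levels of the other somatic and pluripotent samples are used only to place the members.

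All somatic samples were untreated and grown in DMEM with fetal bovine serum. MNF carried the stage neonatal, and MAF and ADSC the stage adult. The labels name no tissue for MNF, and no strain or sex for any of these samples. MNF CiPS1 was made with the small molecule combination coded VCT6FMDBR+Z. MAF CiPS3 (VC6TFDM+Z) came from MAF, ADSC CiPS2 (VC6TFMPS+Z) from ADSC by its title and line name, and CiPS45 (FC6+Z) from embryonic fibroblasts. The source field of ADSC CiPS2 names adult lung fibroblasts instead, so its origin is not settled by the labels. OSKM iPS2, made with transcription factors, and embryonic stem cells (ESC) of the line TT2 complete the set. All pluripotent samples grew on feeder layers of growth-arrested embryonic fibroblasts. Each derived sample is 1 line.

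Each group is 1 column of values, which seems to hold the average of 3 stated replicates, so no test between MNF and the adult samples was possible, and differences are given as measured. Stage and tissue of origin cannot be told apart in this comparison. In bulk samples, a larger share of cells of a type and more RNA per cell cannot be told apart either.

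Fibroblasts of different body sites are known to keep the position code of the embryo: Hox genes and other homeobox and T-box regulators that were set during patterning stay active in culture. Fibroblasts of newborn skin and limb build collagen and elastic fibres, and fetal and neonatal tissues carry high levels of the imprinted growth genes Igf2 and H19, which decline after birth. Cultures from whole skin can also hold keratinocytes, and cultures from lung can hold macrophages.

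The promoter windows of 3 member genes are shown because each stands for a different group described here: a keratin, a sarcomeric actin and a patterning regulator, all higher in MNF. The sequences are the 250 bases before the RefSeq start in GRCm38.p6, read 5′ to 3′ on the gene's strand. Capitals mark ATAAAAG, the TATA-type motif searched, or a CArG box, the binding motif of serum response factor. Krt5 lies on the minus strand, chr15:101712906-101713155, Actc1 on the minus strand, chr2:114052876-114053125, and En1 on the plus strand, chr1:120602237-120602486.
Krt5: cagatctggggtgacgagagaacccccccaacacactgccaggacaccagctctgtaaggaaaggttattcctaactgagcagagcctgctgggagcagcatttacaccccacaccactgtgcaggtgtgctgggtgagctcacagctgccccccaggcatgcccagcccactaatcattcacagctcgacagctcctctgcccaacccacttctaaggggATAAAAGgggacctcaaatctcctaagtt
Actc1: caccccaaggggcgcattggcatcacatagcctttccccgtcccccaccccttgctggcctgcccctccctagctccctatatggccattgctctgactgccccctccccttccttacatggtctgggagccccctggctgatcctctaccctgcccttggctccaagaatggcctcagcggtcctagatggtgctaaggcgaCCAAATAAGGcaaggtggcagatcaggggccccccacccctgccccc
En1: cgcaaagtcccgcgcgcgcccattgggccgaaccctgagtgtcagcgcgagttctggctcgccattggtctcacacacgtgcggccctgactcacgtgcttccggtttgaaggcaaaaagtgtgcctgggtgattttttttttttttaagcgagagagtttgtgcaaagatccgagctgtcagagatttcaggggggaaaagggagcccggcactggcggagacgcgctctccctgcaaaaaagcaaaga

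ATAAAAG stood 29 bases before the Krt5 start, and the CArG box 47 bases before the Actc1 start. Neither motif was found in the En1 window. Searched on both strands, ATAAAAG was present in 3.72% of the 188 members above both adult samples with a promoter entry, in 2.57% of the 350 members below, and in 4.83% of all 32851 promoter windows. The CArG box was present in 2.13% of the windows of members above, 1.14% of those below and 1.47% of all windows. These matches are a description of the letters, and Krt17 and Tbx15 had no entry.

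Median intensity was 357 to 359 in all samples of set 2, as the normalization of the set left it. The median gene was 0.14 log2 units higher in MNF than the mean of the adult samples, and differences are given without removing that shift. By comparison, MAF was 4-fold above both other somatic samples in 171 genes (1.27%) and below in 46 (0.34%), and ADSC was above in 67 (0.496%) and below in 77 (0.57%). Against MAF alone, MNF was 4-fold above in 440 genes (3.26%) and below in 831 (6.15%), and against ADSC alone above in 572 (4.23%) and below in 762 (5.64%). MAF and ADSC differed from each other by 4-fold, in either direction, in 503 genes (3.72%). MNF therefore stood apart from the adult pair in more genes than either adult sample stood apart from the other pair.

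**Figure D1:**
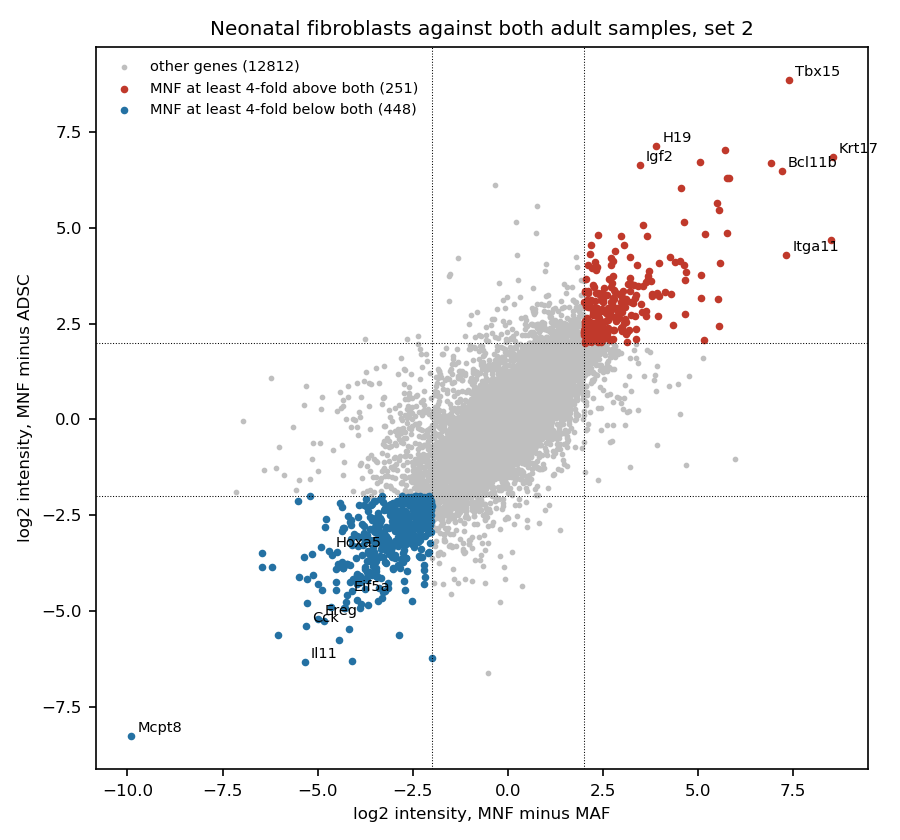
Log2 intensity of MNF minus MAF (horizontal) and minus ADSC (vertical) for each of 13511 genes, with dotted lines at 4-fold. The 251 red and 448 blue points are the genes past 4-fold against both adult samples.

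MNF CiPS1 also stood apart from the other pluripotent samples of set 2 in the members. OSKM iPS2 shared the sign of its medians. The 448 genes lower in MNF lay at a median of -1.42 log2 units in MNF CiPS1 and -0.71 in OSKM iPS2, relative to the mean of the other pluripotent samples, against 0.13 in MAF CiPS3, 0.82 in ADSC CiPS2, 0.80 in CiPS45 and 0.63 in ESC. The 251 higher genes lay at 0.74 in MNF CiPS1, 0.20 in OSKM iPS2, 0.02 in MAF CiPS3, -0.29 in ADSC CiPS2, -0.40 in CiPS45 and -0.35 in ESC. Over all genes these medians stayed between -0.07 and 0.05. The mean set against each of the other samples includes MNF CiPS1, so distances from 0 depend on it. Against ESC alone, the lower genes lay at -1.69 in MNF CiPS1, -1.11 in OSKM iPS2 and -0.36 in MAF CiPS3. They lay at 0.04 in CiPS45 and 0.11 in ADSC CiPS2. The higher genes lay at 0.98, 0.46, 0.28, -0.05 and 0.06 in the same order. OSKM iPS2 is not labelled as derived from MNF. Samples of set 1 spread as well: the 207 lower members measured there lay between -0.92 in ESC of the line R1 and 1.02 in CiPS34.

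Of the genes with several probes and at least 1 past 2-fold, 40 of 683 (5.86%) had probes going opposite ways past 2-fold between MNF and the adult mean, against 2 of 285 (0.702%) between MAF and ADSC. The same share was 4.45% in MNF CiPS1 and 0 to 1.65% in the other 5 pluripotent samples. What these features contribute to the members was not tested. Of the higher members with another probe, 16 in number, 6 had all other probes past 2-fold the same way against the adult mean and 5 had a probe of the other sign. Of the 41 such lower members, 21 had all other probes past 2-fold the same way and 7 had a probe of the other sign. The genes within 2-fold of the other pluripotent samples in MNF CiPS1 numbered 138 of the higher and 143 of the lower members (all genes 81.8%). Over all 11057 such genes, 918 (8.30%) were at least 2-fold above both adult samples in MNF and 760 (6.87%) below, and these shares stand beside the counts over such genes given for some lists.

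**Figure D2:**
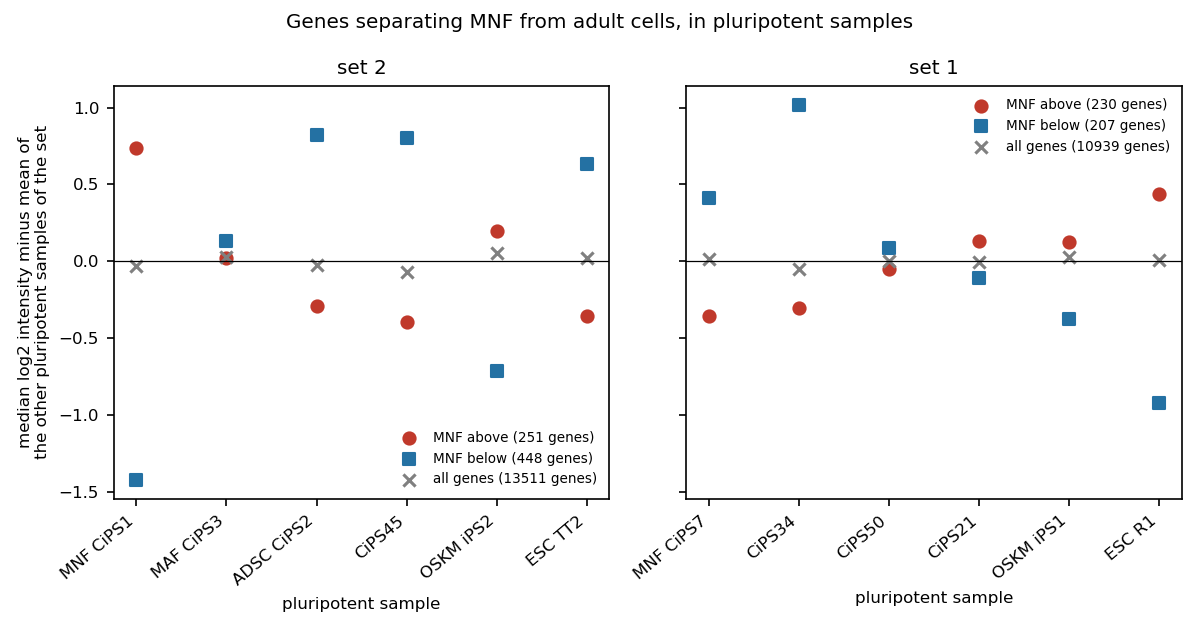
Median log2 intensity, in each pluripotent sample of sets 2 and 1, of the genes above (circles) and below (squares) both adult samples in MNF, minus the mean of the other pluripotent samples of that set. MNF CiPS1 has the lowest value for the lower genes, -1.42, while crosses for all genes stay near 0.

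The label fibroblast was checked only on the 9 of 20 listed markers that were measured in set 2. They summed to 121871 in MNF, 117209 in MAF and 96176 in ADSC. Thy1, a surface glycoprotein of fibroblasts and other stromal cells, had 42557 in MNF, against 12750.5 in MAF and 6971 in ADSC. Dcn, the collagen-binding proteoglycan decorin, had 10669 in MNF, against 39921 in MAF and 25295 in ADSC. The other 7 markers did not pass 2-fold against both adult samples. The 13 measured pluripotency genes summed to 120663 in MNF CiPS1 and 4358 in MNF, and 8 of them lay within 2-fold of the other pluripotent samples in MNF CiPS1. Esrrb, a nuclear receptor of the naive pluripotent state, had 31719 in MNF CiPS1 and 49.7 in MNF, and Fgf4, a growth factor of the early embryo, had 38520.5 in MNF CiPS1 and 94.7 in MNF. Nanog, a core pluripotency regulator, had 140 in MNF CiPS1 and 106 in MNF, against 285 to 5350 in the other 5 pluripotent samples.

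The largest differences in the neonatal direction belonged to genes of epidermis and patterning. Krt14, a keratin of the basal epidermal layer, had 55217 in MNF, against 455 in MAF and 532 in ADSC. Krt17, a keratin of hair follicles and activated epidermis, had 33299 in MNF, against 89.3 in MAF and 289 in ADSC. Tbx15, a T-box factor of the dermis and skeleton, had 19420 in MNF, against 115 in MAF and 41.8 in ADSC, or 169-fold above the nearer adult sample. All 3 genes lay far from both adult samples, which differed among themselves by much less.

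Of 12 keratinocyte markers measured, 8 were at least 2-fold above both adult samples and 0 below (all genes 10.9% and 10.4%), 5 were at least 4-fold above, and their median difference to the adult mean was 2.27 log2 units. Of the 11 markers within 2-fold in MNF CiPS1, 7 were above. Besides Krt14 and Krt17, Krt5, the partner of Krt14, had 2397 in MNF, against 125 in MAF and 128 in ADSC. Sfn, an epithelial 14-3-3 protein, had 8514 in MNF, against 252 in MAF and 622 in ADSC. Not every marker stood apart: Trp63, the master regulator of basal keratinocytes, had 168 in MNF, against 86.7 in MAF and 69.9 in ADSC, and Krt1, a keratin of the layers above, had 93.8 in MNF, against 55.4 in MAF and 45.9 in ADSC. Krt10, also on the list, went the other way, at -0.93 log2 units against the nearer adult sample. The summed intensity of the list was 108450 in MNF, against 3430 in MAF and 6760 in ADSC. Their part in other members was not tested. Krt6a, an inducible keratin, was also among the 25 largest differences with 6759 in MNF, against 144 in MAF and 152 in ADSC. So were Lamb3, a laminin chain of the epidermal basement membrane, with 1811 in MNF against 85.8 in MAF and 105 in ADSC, and Col7a1, the collagen of its anchoring fibrils, with 2571 in MNF against 111 in MAF and 147 in ADSC.

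**Figure D3:**
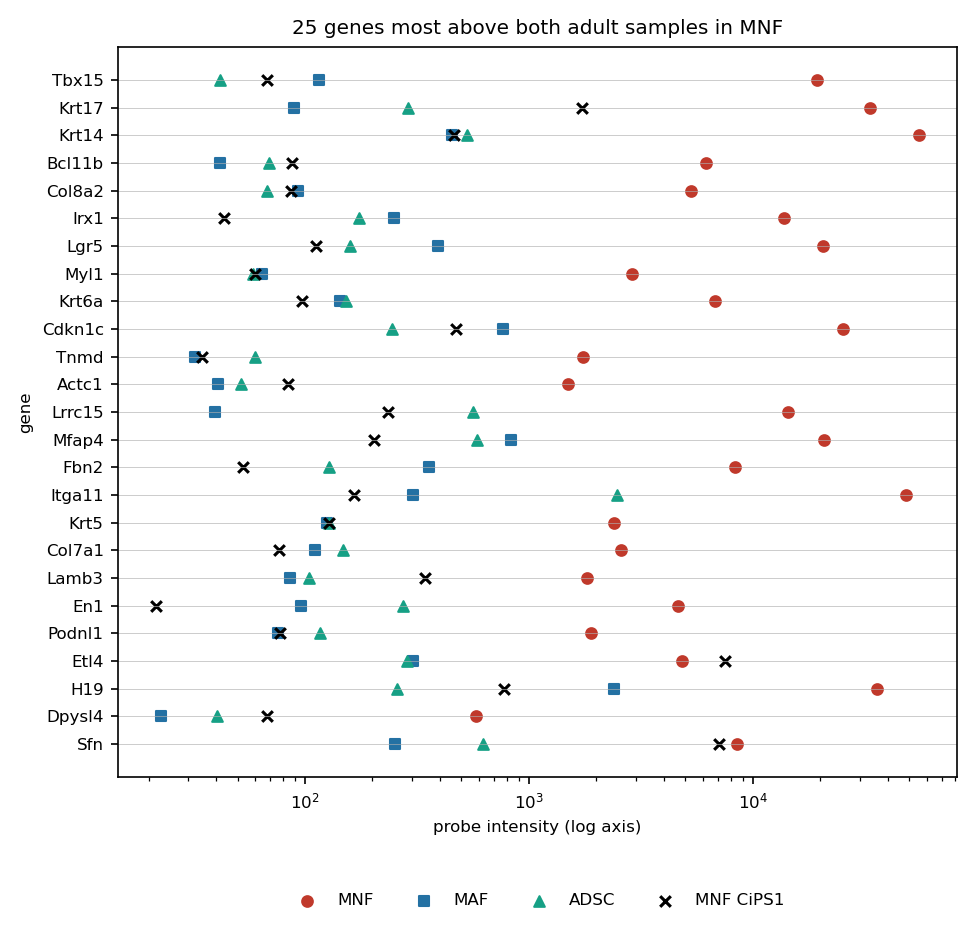
Probe intensity (log axis) of the 25 genes most above both adult samples in MNF, with MNF in red circles, MAF in blue squares, ADSC in green triangles and MNF CiPS1 in black crosses. The circles lie right of both adult symbols in all 25 rows, as the choice of genes requires, and the crosses of Etl4 and Sfn lie near theirs.

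Regulators of the position code differed from the adult samples in both directions. Of 16 measured limb, dermis and face regulators, 6 were at least 2-fold above both and 0 below (all genes 10.9% and 10.4%). Their median was 0.95. En1, a homeobox gene of ventral limb and dermis, had 4631 in MNF, against 96.0 in MAF and 274 in ADSC. Irx1, an Iroquois homeobox gene outside that list, had 13728 in MNF, against 250 in MAF and 174 in ADSC. Bcl11b, a zinc finger repressor of skin and T cells, had 6158 in MNF, against 41.8 in MAF and 68.8 in ADSC.

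Of 10 measured Hox C and D genes, 3 were 2-fold above both adult samples, 0 below and 7 neither (median 1.86). The shares over all genes were 10.9% above and 10.4% below. Hoxc10, a posterior gene active in hindlimb and lower trunk, had 805 in MNF, against 64.5 in MAF and 123 in ADSC. Hoxd9 had 575 in MNF, against 85.8 in MAF and 230 in ADSC, and Hoxd10 had 725 in MNF, against 182 in MAF and 192 in ADSC. Of 11 Hox A and B genes, 0 were above, 4 were below, all 4 past 4-fold, and 7 were neither (median -1.02). Of the 10 Hox A and B genes within 2-fold in MNF CiPS1, 3 were below. The difference between the clusters was not tested. Hoxa5, which is required for lung and trunk development, had 316 in MNF, against 8189 in MAF and 3444 in ADSC. Hoxb6 had 102 in MNF, against 1693 in MAF and 811 in ADSC, and Hoxb2 and Hoxa4 were lower by 2.91 and 2.36 log2 units against the nearer adult sample. Hoxc4, Hoxc6 and Hoxc8 lay between the adult samples, above MAF and below ADSC, with Hoxc6 at 5786 in MNF, against 92.2 in MAF and 11812 in ADSC. Of the lung mesenchyme regulators, 0 of 10 were above and 3 below (Hoxa5, Gata6 and Foxf2, median -1.12). Foxf2, a forkhead factor of gut and lung mesenchyme, had 185 in MNF, against 1666 in MAF and 471 in ADSC.

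Matrix genes were higher in MNF for several collagens and elastic fibre proteins. Of 14 measured collagens, 5 were above both adult samples by 2-fold, all 5 also by 4-fold, and 0 were below (median 1.11). The shares over all genes at 2-fold were 10.9% above and 10.4% below. Col8a2, a short-chain collagen, had 5302 in MNF, against 93.2 in MAF and 67.7 in ADSC. Col6a2, a chain of microfibrillar collagen, had 9866 in MNF, against 764 in MAF and 779 in ADSC, and the other chains Col6a1 and Col6a3 were higher by 2.03 and 2.35 against the nearer adult sample. Of 21 elastic fibre and matricellular genes, 7 were above by 2-fold and 2 below. Mfap4, a microfibril-associated glycoprotein, had 20792 in MNF, against 832 in MAF and 588 in ADSC. Fbn2, the fibrillin of the developing microfibril, had 8348 in MNF, against 356 in MAF and 128 in ADSC, and Eln, elastin itself, had 2328 in MNF, against 462 in MAF and 158 in ADSC. Itga11, a collagen receptor subunit, had 48278 in MNF, against 303 in MAF and 2477 in ADSC, and its other probe gave 511 in MNF, against 68.9 in MAF and 168 in ADSC.

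Several imprinted growth genes were higher in MNF. Igf2, the fetal growth factor, had 37917 in MNF, against 3417 in MAF and 384 in ADSC. H19, the noncoding RNA next to it, had 35987 in MNF, against 2396 in MAF and 258 in ADSC. Cdkn1c, an imprinted cell cycle inhibitor, had 25402 in MNF, against 769 in MAF and 244 in ADSC. Of 17 measured imprinted growth genes, 6 were 2-fold above both adult samples and 2 below (all genes 10.9% and 10.4%). The 2 below were Gnas and Nnat, at -2.39 and -1.43 log2 units against the nearer adult sample. Of the 11 within 2-fold in MNF CiPS1, 2 were above and 2 below. Igf2, H19, Cdkn1c and Mest, all above in MNF, are not among these 11 because they were lower in MNF CiPS1. They lay at -2.92, -2.56, -1.21 and -3.33 log2 units there, against the mean of the other pluripotent samples. Dlk1 and Meg3, from another imprinted locus, had low intensities. Dlk1 had 70.9 in MNF, against 40.9 in MAF and 76.4 in ADSC. Meg3, counted among the 6 above, had 292 in MNF, against 79.3 in MAF and 96.2 in ADSC. Igf2bp3 and Igf2bp1, RNA-binding proteins of fetal tissues, were higher by 2.93 and 2.71 log2 units against the nearer adult sample.

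Lgr5, a receptor for R-spondins that marks stem cells of the hair follicle, had 20702 in MNF, against 393 in MAF and 159 in ADSC. Skeletal muscle markers were above for 4 of 9 and below for 1 (all genes 10.9% and 10.4%). Over the 8 within 2-fold in MNF CiPS1, they were above for 3 and below for 1. The 1 below was Des, desmin, with 354.5 in MNF, against 816 in MAF and 910 in ADSC. Actc1, cardiac alpha-actin, which is also made in immature skeletal muscle, had 1490 in MNF, against 40.9 in MAF and 51.7 in ADSC. Myl1, a fast skeletal myosin light chain outside that list, had 2902 in MNF, against 64.5 in MAF and 58.5 in ADSC. Myog, a muscle regulator counted among the 4 above, had 428 in MNF, against 120 in MAF and 151 in ADSC. Myod1, the muscle determination factor, had 26.7 in MNF, against 30.2 in MAF and 27.7 in ADSC. Myf6 had 35.5 in MNF, against 38.5 in MAF and 36.4 in ADSC. These Myod1 and Myf6 values all lay under 39.5, the floor used for low values, so they say little about differences. Summed, the muscle list reached 4041 in MNF, 1391 in MAF and 1481 in ADSC. Of 6 glial and melanocyte markers, 3 were above, led by the nerve growth factor receptor Ngfr with 3531 in MNF, against 561 in MAF and 277 in ADSC. The part of such cells in the members was not tested.

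**Figure D4:**
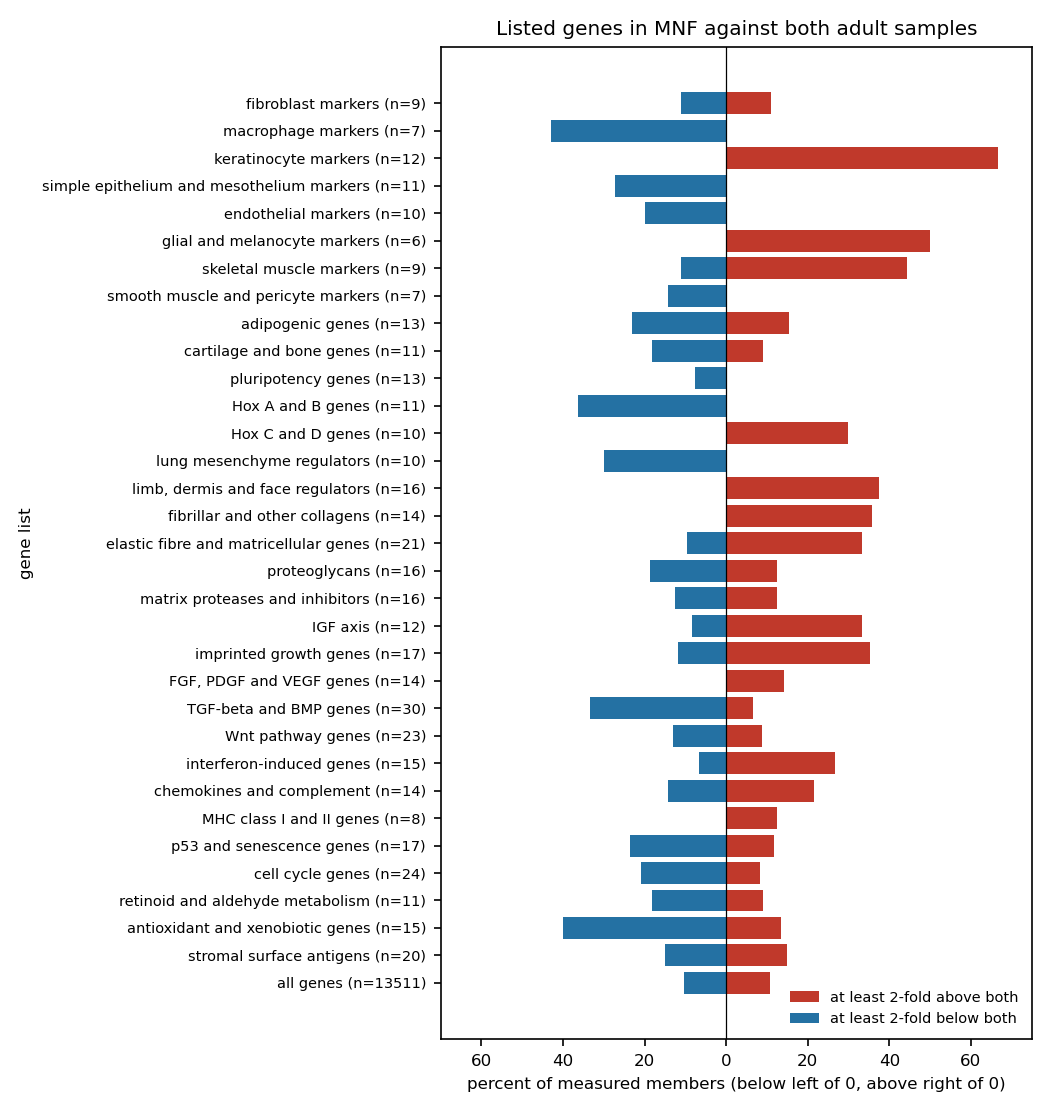
Percent of measured genes in each list that were at least 2-fold above (red, right) or below (blue, left) both adult samples in MNF, with all genes in the last row. Keratinocyte markers, with 8 of 12 above, and macrophage markers, with 3 of 7 below, lie farthest from the all-gene row in their direction.

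In the other direction, secreted and signalling genes of the adult samples were among those with the largest differences. Mcpt8, a protease of the mast cell protease family, had 53.8 in MNF, against 51139 in MAF and 16604 in ADSC. Il11, a cytokine of the IL-6 family, had 638 in MNF, against 25796 in MAF and 51706 in ADSC. Cck, the peptide hormone cholecystokinin, had 738 in MNF, against 29409 in MAF and 31003 in ADSC, and Ereg, an EGF receptor ligand, had 143 in MNF, against 4539 in MAF and 5270 in ADSC. Of 7 measured macrophage markers, 0 were above and 3 were below by 2-fold (all genes 10.9% and 10.4%). Their sum was 2622 in MNF, against 38156 in MAF and 3010 in ADSC. Cd14, a receptor of bacterial lipopolysaccharide, had 120 in MNF, against 4238 in MAF and 1358 in ADSC. Ptprc, the pan-leukocyte marker, had 158 in MNF, against 424 in MAF and 131 in ADSC.

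Of 30 TGF-beta and BMP genes, 2 were above both adult samples and 10 below (median -0.92, all genes 10.9% above and 10.4% below). Of the 23 within 2-fold in MNF CiPS1, 2 were above and 5 below. Grem1, a BMP antagonist, had 1079 in MNF, against 16403 in MAF and 6345 in ADSC. Id2 and Id3, helix-loop-helix inhibitors that BMP signalling is known to induce, were lower by 2.28 and 2.13 against the nearer adult sample. Antioxidant and xenobiotic genes were below for 6 of 15 and above for 2 (median -1.15), with Gstp1, a glutathione transferase, at 1092 in MNF, against 10062 in MAF and 11567 in ADSC. Of the 9 such genes within 2-fold in MNF CiPS1, 1 was above and 3 below. Cell cycle genes were below for 5 of 24 and above for 2 (median -0.48), and of the 16 within 2-fold in MNF CiPS1, 1 was below and 1 above. Ccnd1, cyclin D1, had 398 in MNF, against 16195 in MAF and 4766 in ADSC, and Mki67, a proliferation marker, had 978 in MNF, against 711 in MAF and 870 in ADSC. Bub1, a mitotic checkpoint kinase, is counted as above by its chosen probe, while its other probe gave 185 in MNF, against 577 in MAF and 933 in ADSC.

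**Figure D5:**
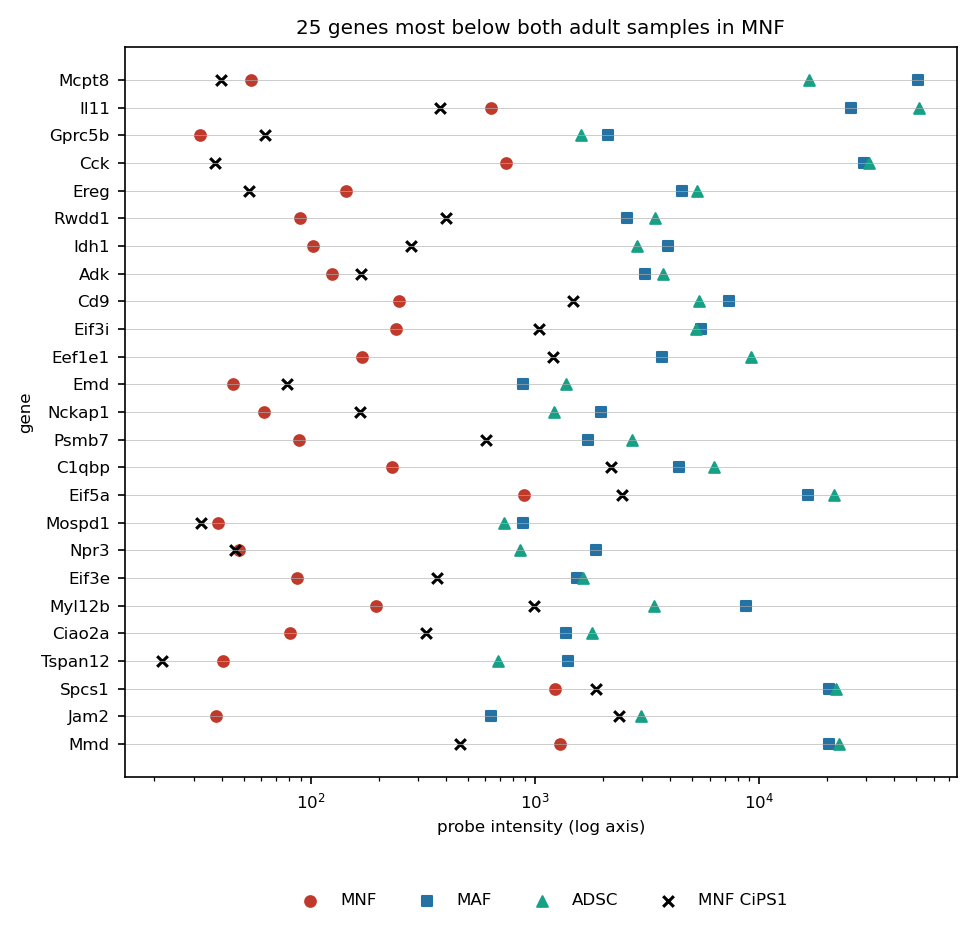
Probe intensity (log axis) of the 25 genes most below both adult samples in MNF, with symbols as in the plot of higher genes. MNF circles lie left of both adult symbols by choice of genes, and the black crosses of MNF CiPS1 lie left of both adult symbols in every row but Jam2.

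The 25 genes most below both adult samples also held many with general roles in the cell, among them Idh1, Adk, Psmb7, Eif3i, Eif3e, Eif5a and Eef1e1. Idh1, cytosolic isocitrate dehydrogenase, had 102 in MNF, against 3931 in MAF and 2834 in ADSC, Eif3i, a translation initiation subunit, had 239 in MNF, against 5490.1 in MAF and 5206 in ADSC, and Psmb7, a proteasome subunit, had 88.4 in MNF, against 1727 in MAF and 2707 in ADSC. Adk, adenosine kinase, had 168 in MNF CiPS1, against 1172 in OSKM iPS2 and 2054 to 3974 in the other 4. Over all genes, 10.4% were at least 2-fold below both adult samples and 10.9% above. In families picked by name after the values were seen, complex I subunits were below both adult samples for 12 of 40 and above for 0 (median -0.49). Translation initiation factors were below for 10 of 45 and above for 3 (median 0.11), and proteasome subunits below for 6 of 36 and above for 1 (median -0.34). Cytosolic ribosomal proteins were below for 7 of 40 and above for 3 (median -0.11), and chaperonin subunits below for 1 of 7 (median -0.20). Over genes within 2-fold in MNF CiPS1, complex I was below for 6 of 31 and above for 0, initiation factors below for 3 of 34 and above for 2, the proteasome below for 1 of 31 and above for 1, ribosomal proteins below for 3 of 32 and above for 2, and chaperonins for 0 of 5 either way. Eif5a, a translation factor, gave 892 in MNF, against 16573 in MAF and 21486 in ADSC, and its other probe gave 830 in MNF, against 17798 in MAF and 21239 in ADSC.

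Just inside the upper limit stood Bub1 at 4.00-fold, Upf2 at 4.00 and Tab1 at 4.01, and just outside it Gtf3c6, Nbas and 2700081O15Rik at 3.999, 3.998 and 3.995. Just inside the lower limit stood Smc3 at 4.00-fold, Rasa1 at 4.00 and Inhba at 4.01, and just outside it Tom1l1 at 3.996, Ndufa11 at 3.99 and Dcun1d4 at 3.99. Other probes of Bub1, Smc3 and Ndufa11 went the opposite way.

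In MNF CiPS1, 111 of the 251 higher members (44.2%) were at least 4-fold below MNF, against 7.35% of all genes, and their median difference to MNF was -1.66. Of the 448 lower members, 74 (16.5%) were at least 4-fold above MNF, against 7.14% of all genes, with a median of 0.85. Both comparisons use the MNF values that chose the members, so the direction is a description. Krt14 had 462 in MNF CiPS1, Tbx15 had 67.8, Lgr5 had 112 and Irx1 had 43.3, within or below the range of the adult samples.

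Set against the other 5 pluripotent samples of set 2, MNF CiPS1 was past 2-fold the same way as MNF for 107 of 251 higher members (42.6%, all genes 10.1%) and for 301 of 448 lower members (67.2%, all genes 8.02%), and within 2-fold for 138 and 143 (all genes 81.8%). At 4-fold it was above for 23 higher members (9.16%, all genes 0.925%) and below for 97 lower members (21.7%, all genes 1.25%). OSKM iPS2, which is not labelled as made from MNF, was 4-fold below for 43 of the lower members (9.60%, all genes 0.725%). Whether these values come from the starting cells was not tested. Among the members farthest from the other pluripotent samples in MNF CiPS1 were Id3 with 141 in MNF CiPS1, against 1294 to 8442 in the other 5 samples, Tnni3 with 1708, against 48.1 to 203, Adk with 168, against 1172 to 3974, and Mest with 132, against 253 to 3048. Mest, an imprinted gene, was higher in MNF than in the adult samples and lower in MNF CiPS1 than in its peers. H19 and Igf2, high in MNF, had 771 and 233 in MNF CiPS1, against 2020 to 18943 and 744 to 3293 in the other 5 samples.

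The same rule among the derived lines gave 58 genes (0.429%) with MNF CiPS1 4-fold above both MAF CiPS3 and ADSC CiPS2, and 93 (0.688%) below. Of the 58, 11 were also above in the somatic comparison (19% of this list, 4.38% of the 251), and 0 were below both in the line while above in the somatic cells. Of the 93, 50 were also below (53.8% of this list, 11.2% of the 448), and 2 genes of the lower members were above in the line. The lines differ in small molecule combination as well as in origin, and these cannot be told apart. They also differ in the share of genes with opposite-going probes, 4.45% in MNF CiPS1, 1.65% in MAF CiPS3 and 0 in ADSC CiPS2. What this contributes to the shared genes was not tested.

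MNF CiPS7, the other line made from neonatal fibroblasts (VC6TFS+Z), lay in set 1. Of the 251 higher and 448 lower members, 230 and 207 were measured there. Of these, 0 and 0 were 4-fold past the mean of the other 5 pluripotent samples of its set in the matching direction. Over all genes this was 0.0548% above and 0.11% below, so rare that counts of 0 among the members say little. Within 2-fold lay 195 of the higher (84.8%) and 184 of the lower members (88.9%), against 96.1% of all genes. Its medians were -0.35 for the higher and 0.41 for the lower members, the opposite sign to MNF CiPS1. A limma fit of both lines against 6 other CiPSC lines of the same sets, with set as a term, called 0 of 10939 genes after Benjamini-Hochberg adjustment. At an unadjusted p under 0.05 there were 231 genes, and the smallest adjusted p was 1.0. The count of 0 stood under all alternatives tried, and over them the smallest adjusted p ranged down to 0.136, the value without MNF CiPS7.

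Mouse embryonic fibroblasts (MEF), measured in 4 other sets, were placed against the pluripotent samples of their own set. Of the higher members, 146 of 251 (58.2%) were at least 4-fold above the pluripotent mean in MNF (all genes 9.19%), 20 (7.97%, all genes 8.42%) in MAF and 17 (6.77%, all genes 6.88%) in ADSC. The share was 24.8% in the MEF of set 1 (all genes 7.34%), 29.4% in set 3 (5.9%), 29.3% in set 4 (8.25%) and 23.5% in set 5 (19.1%). Tbx15, Irx1, Lgr5, H19 and Igf2 lay between 3.21 (Igf2 in set 3) and 7.45 log2 units (Irx1 in set 1) above the pluripotent mean in all 4 MEF samples. Krt14 lay between -0.27 (set 4) and 3.13 (set 5) in the MEF samples, and at 6.37 in MNF. Krt17 lay below the pluripotent mean in all 4 MEF samples. Krt5 lay between 0.13 (set 3) and 4.89 (set 5) in the MEF samples, and at 4.00 in MNF, so the MEF of set 5 exceeded MNF. Of the lower members, 218 of 448 (48.7%) were at least 4-fold below the pluripotent mean in MNF (all genes 8.92%), 10 (2.23%, all genes 6.68%) in MAF and 7 (1.56%, all genes 6.15%) in ADSC. In the MEF of sets 1, 3, 4 and 5 this share was 13.5% (all genes 5.96%), 12.5% (6.13%), 7.43% (6.76%) and 21.2% (17.7%). The sets were normalized separately, so these levels are a description.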

How the data were processed

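Cy5-labelled RNA was measured on the Phalanx Mouse OneArray v2 in 1 colour, per the labels. The deposited values are probe intensity on a linear scale, with a single column for each sample. The authors normalized 5 sets separately and used 3 replicates per sample in set 2, per the series' design text. The columns therefore seem to hold averages, and the spread between replicates cannot be seen. Scanner, software, background correction and the nature of the replicates are not stated in the labels or the design text. Of 26423 probes 21876 carried 1 gene in the platform annotation, 4547 none and 0 several, and 21825 gene IDs matched RefSeq (GRCm38.p6). Set 2 held 15437 probes and 13511 genes. Where a gene had several probes, the one measured in most samples, then the one with the highest mean, was used.

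The deposited intensity was then converted to log2. A member lay at least 4-fold above or below both adult samples, and listed genes were counted at 2-fold. With 1 sample per group there is no test. MNF-derived lines were compared with limma 3.58.1 in R 4.3.3 (data.table, version 1.17.8), with set as a term and Benjamini-Hochberg adjustment at 0.05 over 10939 genes. p-values from these averaged columns measure the spread between lines. The fit was checked on simulated data. Counts were made in Python 3.11.15 with pandas 2.3.3 and numpy 2.4.6.

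The members, the 32 lists (657 genes) and the 6 families were chosen with earlier results of these data known. Named genes were the 25 most above and 25 most below both adult samples, with values under the 5th percentile (39.5) set to it, up to 4 members past 2-fold of each list, a fixed set of fibroblast, imprinted and pluripotency genes, 3 on each side of each 4-fold limit, and up to 6 farthest in MNF CiPS1. Further members of lists are named after their values were seen. Alternatives covered probes, low values, the normalization, the fold, each adult sample and each CiPSC line left out. The number of arrays limits precision.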

Additional observations from a re-analysis of the deposited data

Results flagged for a closer look

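Among the 50 genes with the largest differences between MNF and both adult samples, 4 had 1 pluripotent sample of set 2 far from the other 5, with a gap above Dixon's 95% critical value for 6 samples. Chance alone marks about 1 in 20 groups. Col7a1 had 40.5 in CiPS45, against 65.5 to 76.2 in the others. Dpysl4, a dihydropyrimidinase-related protein, had 202.1 in OSKM iPS2, against 47.1 to 67.9. Gprc5b, an orphan receptor, had 152.6 in MAF CiPS3, against 54.0 to 75.9, and its other probe went the opposite way, with 59.4 in MAF CiPS3, against 59.6 to 248.7. Cck had 142.0 in MAF CiPS3, against 18.5 to 37.8, and 29409 in MAF itself. All 4 values lie under the level of the somatic sample in which the gene was high. No value of MNF CiPS1 was among them.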

How the results depend on the processing

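The counts of 251 genes above and 448 below both adult samples stayed within 1.5 times under the mean of all probes, the 5th percentile as a floor or added to every value, the lowest 25% of genes left out, quantile normalization and centring. With each sample centred on its median there were 235 and 469. Shifting MNF by the 0.14 log2 units of its median difference, an alternative added after seeing the data, gave 194 above and 529 below, so the share above among all calls was 26.8% instead of 35.9%. At 2-fold the counts were 1467 and 1401, and at 8-fold 63 and 133. With only 1 adult sample the counts above ranged from 440 (without ADSC) to 572 (without MAF), and those below from 762 (without MAF) to 831 (without ADSC), since a single comparison is then asked to pass. Genes within 2-fold in MNF CiPS1, also added later, left 138 above and 143 below, and among listed genes 44 instead of 67 below at 2-fold. Over all genes the same restriction left 760 instead of 1401 below and 918 instead of 1467 above at 2-fold. The derived lines gave 782 above and 746 below at 2-fold, against 58 and 93 at 4-fold. For the 25 genes most above and the 25 most below, all 300 values under the 6 alternatives that recompute the difference (mean of all probes, both uses of the 5th percentile, quantile normalization, centring and the shift) kept the direction and the 4-fold side. These genes were chosen for the largest differences in the same values, with the floor already applied. Most have 1 probe, so this outcome was close to fixed in advance and says little about robustness. The limma fit called 0 genes under every alternative, with 145 to 1457 genes at an unadjusted p under 0.05. The highest of these counts came without MNF CiPS7, which left 1 line on that side and assumes that it varies like the others. No paired analysis was possible because each group of set 2 holds 1 column and replicate numbers of lines name lines, not shared cultures.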

Other observations

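Interferon-induced genes, which were not described above, were 2-fold above both adult samples for 4 of 15 and below for 1 (all genes 10.9% and 10.4%). Psmb8, an immunoproteasome subunit, had 4659 in MNF, against 1201 in MAF and 1178 in ADSC, and Irf7, an interferon regulator, had 5620.5 in MNF, against 1874 in MAF and 2295 in ADSC. Lpl, lipoprotein lipase, had 45641 in MNF, against 4414 in MAF and 4815 in ADSC, while Plin2, a lipid droplet coat protein, had 934 in MNF, against 9387 in MAF and 5752 in ADSC. Crabp1, a retinoic acid binding protein, had 34239 in MNF, against 5605 in MAF and 3584 in ADSC, and Aldh1a2, which makes retinoic acid, had 81.2 in MNF, against 2452 in MAF and 816 in ADSC. Genes of the fat and retinoid lists therefore went both ways in MNF. Of 10 measured endothelial markers, 0 were above both adult samples, 2 below (all genes 10.4%) and 8 neither. The 2 were Cdh5, with 128 in MNF, against 346 in MAF and 1938 in ADSC, and Cldn5, with 164 in MNF, against 483 in MAF and 504 in ADSC.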
